A study of Homo sapiens with 6 samples.

Results

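The 57 genes described here make up a list of the interferon response and of antigen presentation by major histocompatibility complex (MHC) class I, namely the class I molecules and the proteins that load them, the interferon signalling chain, the cGAS-STING sensors and the genes that interferon switches on. They were taken from the table by gene symbol, from a list drawn up with earlier results of these data known, and 56 of the 57 were found among the 12308 different rows of the deposited RNA-seq table. The symbol MB21D1 was not found, and the same gene under its current symbol CGAS is given separately and is not counted. All 56 members passed the filter on low values, which asked for 3 or more of the 6 libraries to reach a value of 1, as did 11766 genes in all.

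Interferons bind receptors that act through the JAK kinases, and these phosphorylate STAT proteins that enter the nucleus and switch on interferon-stimulated genes (ISGs). Type I interferon works mainly through a complex that includes STAT2 and IRF9 and binds the interferon-stimulated response element (ISRE), and type II interferon acts in part through IRF1 and NLRC5, which raise the genes of class I presentation. Class I molecules carry peptides cut by the proteasome to the cell surface for CD8+ T cells, and tumor cells often keep a low basal ISG level that depends on their own nucleic acid sensing.

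RNA was measured in OVCAR5, a BRCA wild-type and p53 null line used as a model of high-grade serous ovarian cancer, and in OVCAR5R, a CHK1 inhibitor (CHK1i)-resistant line derived from it. The agent used for selection was the CHK1i prexasertib (Prex), which OVCAR5R (PrexR) cells came to tolerate at 3 µM after a stepwise escalation that took 3 to 4 months. Stock cultures stayed in 2 µM Prex, a washout of 4 days or longer preceded the experiments, and the unselected parent OVCAR5 was the control. Total RNA came from 3 cultures of each line with no interferon treatment given in the labels, so the values are read as basal levels, and the 3 OVCAR5R libraries are cultures of 1 derived line and not separate selections. The only comparison the design allows is OVCAR5R against OVCAR5, which asks what differed at rest after resistance was acquired.

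The deposited values were a normalized linear signal, and estimated depth was 35.8 to 41.3 M reads (M, mega) per OVCAR5 library and 50.3 to 55.1 M per OVCAR5R library. The OVCAR5 replicate 2 library stood apart. Its correlation with the other OVCAR5 libraries over all genes tested was 0.883 to 0.898 on the log2 scale, against 0.955 between those. The summed signal of the 6 epithelial markers found of 8 listed was 16711 in that library and 2306 to 4240 in the other libraries, with KRT19 at 1341 against 3.09 to 10.7 and EPCAM at 597 against 11.9 to 31.7. The ovarian marker list (4 of 8 found) summed to 44.3 to 53.4 in OVCAR5 and 14.9 to 17.8 in OVCAR5R, with PAX8 present in each library and WT1 at 0.73 or below. Leukocyte markers (4 of 10 found) summed to 86.7 to 118 and 112 to 156, and fibroblast markers (2 of 8 found) to 1.77 to 15.3 and 6.95 to 9.99, while PTPRC, CD3E, COL1A2 and the 5 endothelial markers were not among the rows used. The part of these differences in the results below was not tested, and the main counts are given with and without OVCAR5 replicate 2.

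No member differed between the lines at an adjusted p under 0.05 by limma, against 0.119% of all genes tested (14 genes). The direction was nevertheless shared by nearly the whole list. The log2 fold change of OVCAR5R over OVCAR5 was below 0 for 53 of the 56 members, against 50.8% of all genes, and the exceptions were TAP2 (0.15), IFNAR2 (0.22) and JAK1 (0.28). The median log2 fold change was -0.50 over the members and -0.01 over all genes. At an unadjusted limma p under 0.05, 8 members were lower in OVCAR5R (6.25% of all genes) and 0 were higher (4.14%). Each OVCAR5R library lay below each OVCAR5 library for 8 members (14.3%, against 8.18% of all genes) and above for 0 (8.4%). A log2 fold change of -1 or lower was seen for 7 members, or 12.5%, against 4.16% of all genes, and without OVCAR5 replicate 2 for 3 members, or 5.36%, against 3.43%.

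**Figure D1:**
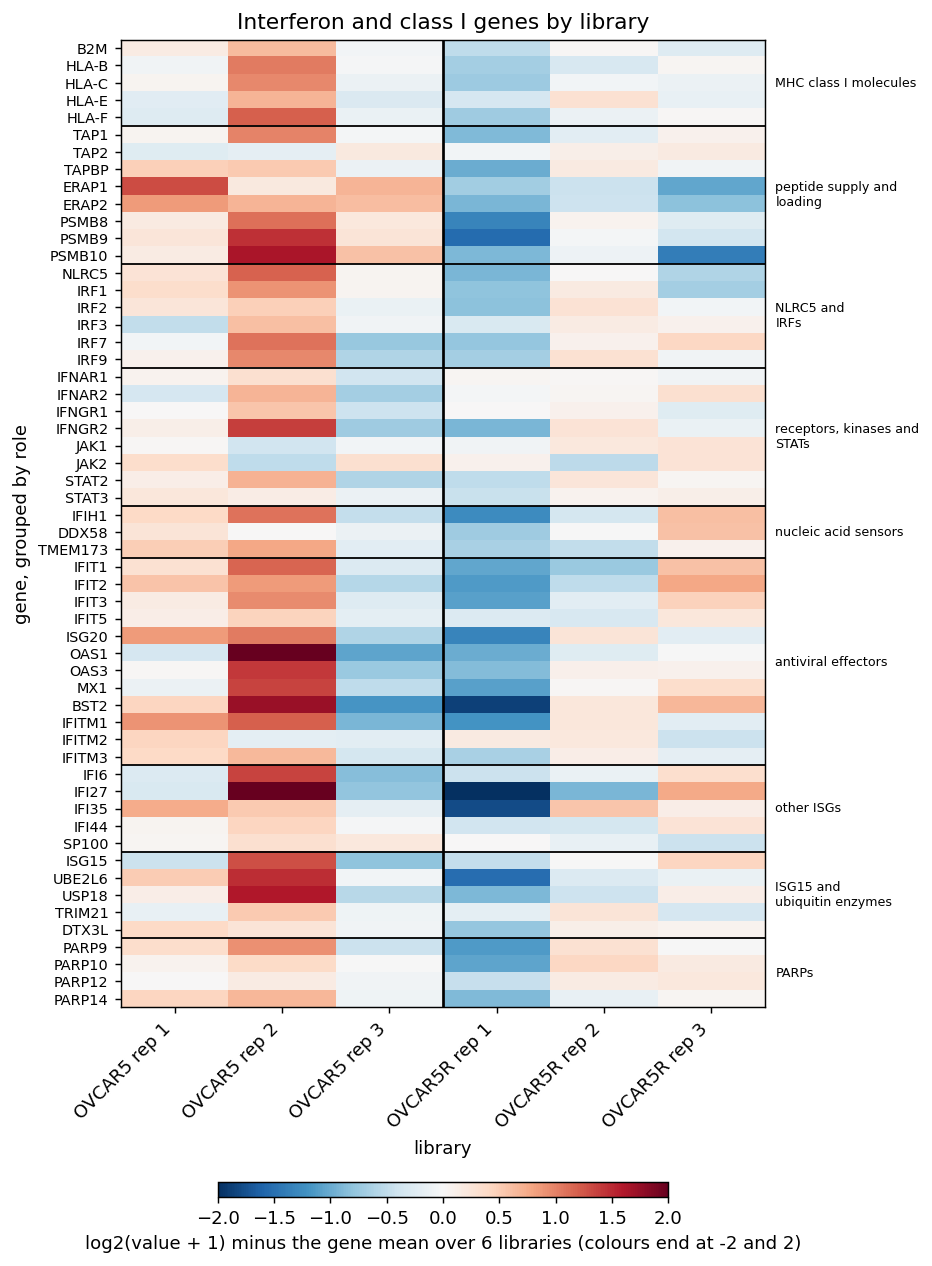
Deposited signal of the 56 members (rows, grouped by role) in the 6 libraries (columns), as log2(value + 1) minus the mean of the gene over the 6 libraries, with red for above and blue for below that mean. OVCAR5 replicate 2 is the highest library for 44 members and OVCAR5R replicate 1 the lowest for 39.

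The libraries of a line did not move together, and much of the shift came from 1 library of each line. OVCAR5 replicate 2 was the highest of the 6 libraries for 44 of the 56 members, against 26.9% of all genes, and stood at 1.5 times the mean of the other OVCAR5 libraries or more for 35 members, against 18.1%. OVCAR5R replicate 1 was the lowest library for 39 members, against 18.4% of all genes. Set against the OVCAR5 mean of each gene, the members had a median of -0.08, 0.61 and -0.41 in OVCAR5 replicates 1, 2 and 3 and of -1.02, -0.18 and -0.23 in OVCAR5R replicates 1, 2 and 3, on the log2 scale. OVCAR5 replicate 3 thus lay below OVCAR5R replicates 2 and 3 by this measure, as the map of members by library shows.

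Without OVCAR5 replicate 2 the median of the members moved to -0.21, and without OVCAR5R replicate 1 to -0.18. Without OVCAR5 replicate 2, 37 of 56 members had a log2 fold change below 0 (50.1% of all genes). In the same setting 3 members were lower at an unadjusted limma p under 0.05 (ERAP1, ERAP2 and PSMB10, against 6.52% of all genes) and 1 was higher (IFNAR2, against 4.32%). The remaining libraries did not overlap for 9 members that were lower in OVCAR5R (16.1% of members, 13.7% of all genes) and 1 that was higher (13.8% of all genes), so the share of lower members was near the background. The order of the role groups was steadier at its lower end, since peptide supply and loading had the lowest median with all libraries (-1.15) and without OVCAR5 replicate 2 (-0.79).

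**Figure D2:**
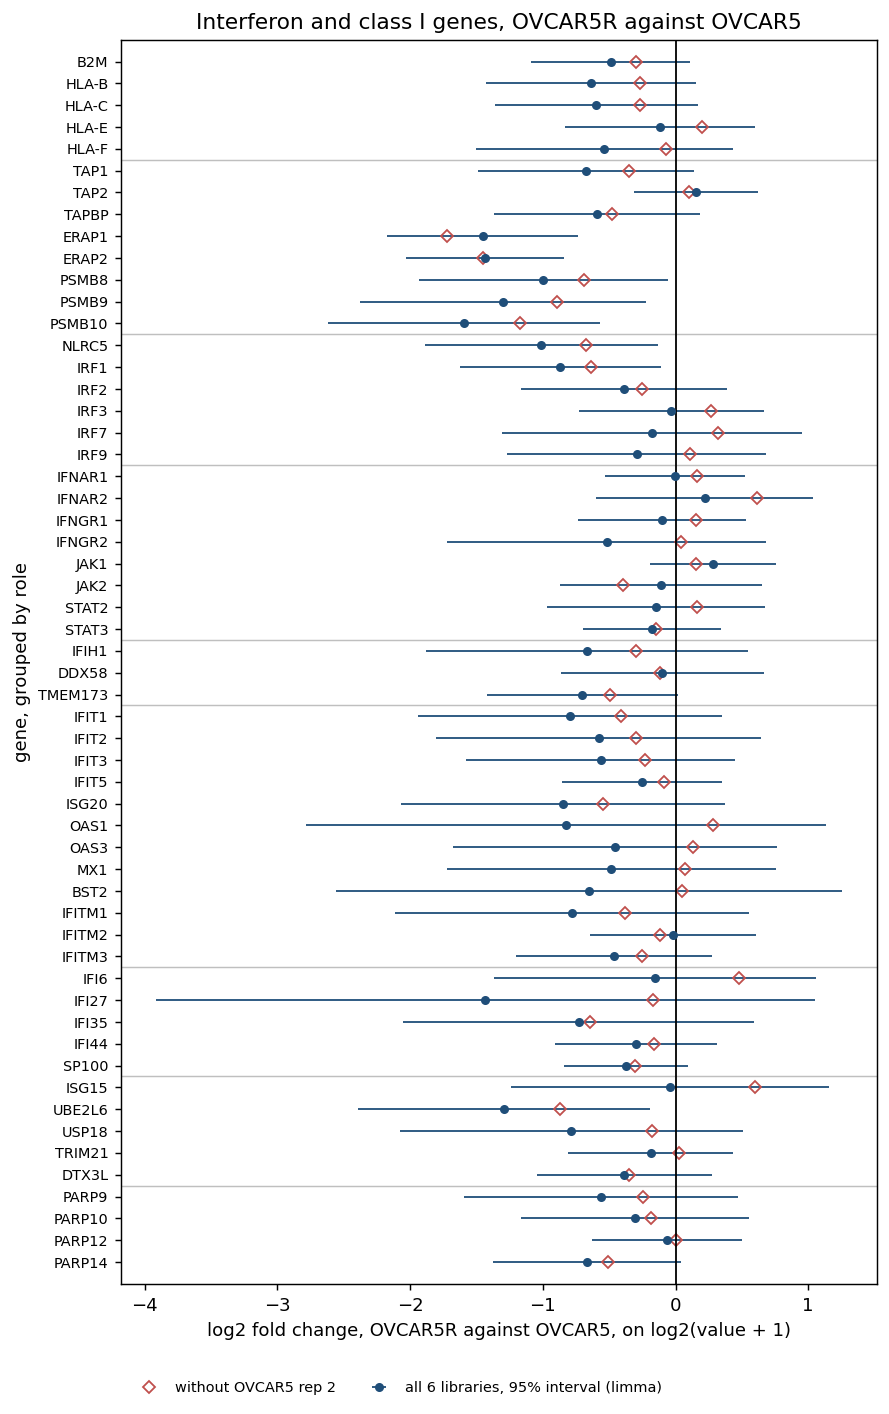
Log2 fold change of OVCAR5R over OVCAR5 for each member (rows, grouped by role), on the log2(value + 1) scale with its 95% interval from limma, and the value without OVCAR5 replicate 2 as a second mark. Most members lie left of 0 with all libraries, and ERAP1, ERAP2 and PSMB10 stay furthest left without that library.

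Among the class I molecules, B2M and the 4 heavy chains HLA-B, HLA-C, HLA-E and HLA-F, the group median was -0.54 and no member's libraries were free of overlap. B2M, the light chain that every class I molecule needs, read 1182, 1633 and 1016 in OVCAR5 and 746, 1080 and 882 in OVCAR5R. Its groups overlapped by 1 library of each line, and its log2 fold change was -0.49 with an interval of -1.09 to 0.11. The heavy chains ran from -0.64 for HLA-B, with -0.60 for HLA-C and -0.54 for HLA-F, to -0.11 for HLA-E, the ligand of the NKG2A receptor. HLA-F was at -0.07 and HLA-E turned to 0.20 without OVCAR5 replicate 2. All 5 were highest in OVCAR5 replicate 2 and lowest in OVCAR5R replicate 1, and without OVCAR5 replicate 2 the group median was -0.26. Reads of the class I heavy chains can be shared between these near-identical genes, and the annotated spans of HLA-B and HLA-C overlap, so their separate values are uncertain.

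The 8 genes of peptide supply and loading stood lowest. Of these 5 (62.5%) were lower in OVCAR5R with no overlap of the libraries (8.18% of all genes) and at an unadjusted limma p under 0.05 (6.25%). Without OVCAR5 replicate 2 these counts were 5 (13.7% of all genes) and 3 (6.52%). ERAP1 and ERAP2 are the aminopeptidases of the endoplasmic reticulum that trim peptides to the length class I molecules hold, and they lie next to each other at chr5:96760810-96808100 and chr5:96875939-96919716 (hg38). ERAP1 read 168, 77.0 and 108 in OVCAR5 and 40.9, 49.5 and 32.1 in OVCAR5R, so every OVCAR5R library was below the lowest OVCAR5 library. Its mean signal was 118 ± 46.2 (SD, n = 3) against 40.8 ± 8.70, a log2 fold change of -1.45 (SE 0.31, adjusted p 0.206 by limma). ERAP2 read 15.0, 13.2 and 12.6 in OVCAR5 and 3.69, 5.65 and 4.03 in OVCAR5R, with a log2 fold change of -1.43 (SE 0.26), the smallest adjusted p of the list (0.146, limma). Unlike for most members, OVCAR5 replicate 2 was the highest library of neither gene, and their log2 fold changes without it were -1.72 (adjusted p 0.083, limma) and -1.45 (adjusted p 0.135).

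PSMB8, PSMB9 and PSMB10 encode the catalytic subunits that interferon adds to the proteasome to form the immunoproteasome. PSMB10 at chr16:67934502-67937087 read 57.8, 163 and 78.0 in OVCAR5 and 27.1, 48.1 and 19.2 in OVCAR5R. This was the lowest log2 fold change of the list at -1.59 (SE 0.44, adjusted p 0.300 by limma), or 3.01-fold lower, and it was -1.17 without OVCAR5 replicate 2. PSMB9 at chr6:32844136-32859585 read 47.4, 113 and 47.9 in OVCAR5 and 13.1, 38.9 and 31.0 in OVCAR5R (log2 fold change -1.30, SE 0.47, adjusted p 0.401). PSMB8 at chr6:32840717-32844703 read 87.5, 167 and 89.5 in OVCAR5 and 30.2, 81.3 and 65.2 in OVCAR5R (log2 fold change -1.0, SE 0.41, adjusted p 0.451). All 3 were highest in OVCAR5 replicate 2, and PSMB8 and PSMB9 were lowest in OVCAR5R replicate 1, where they were at or below 30.2. Without OVCAR5 replicate 2 the log2 fold changes of PSMB9 and PSMB8 were -0.89 and -0.69, and without OVCAR5R replicate 1 they were -0.86 and -0.58.

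**Figure D3:**
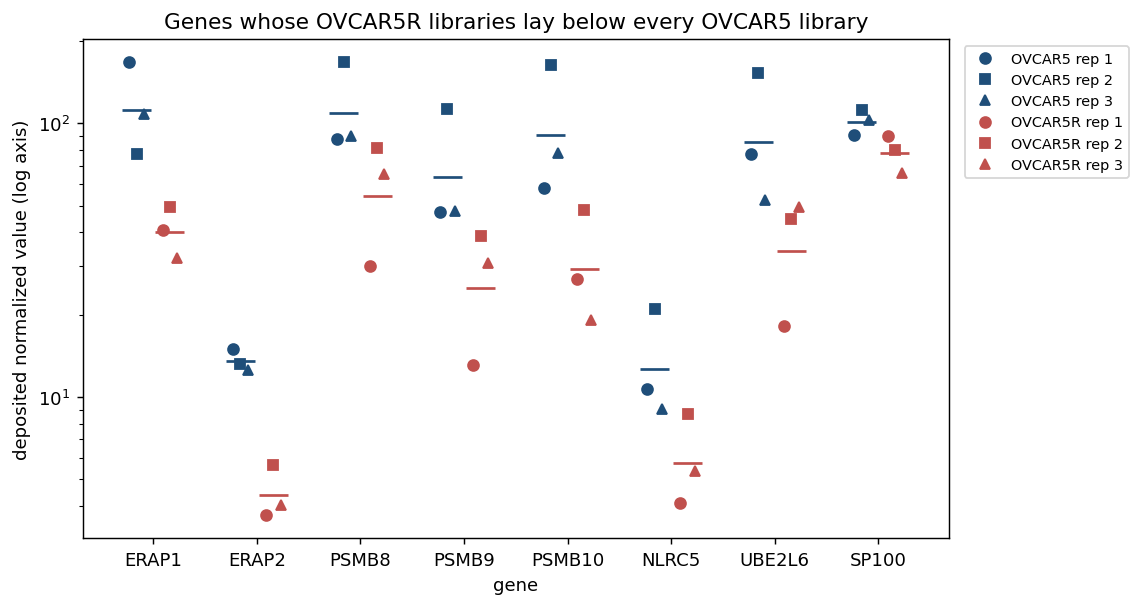
Deposited signal on a log axis for the members whose OVCAR5 (blue) and OVCAR5R (red) libraries do not overlap, with a marker shape for each replicate and a bar at the geometric mean of each line. ERAP1, ERAP2 and SP100 lack the high OVCAR5 replicate 2 value that the other genes share. The groups of SP100, NLRC5, UBE2L6 and PSMB8 are nearly touching.

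In the proteasome each inducible subunit takes the place of a constitutive one, PSMB8 that of PSMB5, PSMB9 that of PSMB6 and PSMB10 that of PSMB7. These ratios were formed after the values had been seen. The constitutive subunits had log2 fold changes of 0.47, 0.07 and 0.29, none of which passed the test. PSMB8 over PSMB5 was -0.89, -0.28 and -1.21 in OVCAR5 and -3.27, -1.71 and -1.81 in OVCAR5R, as a difference in log2(value + 1). PSMB9 over PSMB6 was -1.35, -0.87 and -1.66 against -3.54, -2.21 and -2.26. PSMB10 over PSMB7 was -1.02, -0.08 and -1.06 against -2.71, -1.97 and -3.13. No OVCAR5R library reached an OVCAR5 library in any of the 3 ratios. The exact two-sided permutation p was 0.1 for each, the smallest that 3 against 3 allows. The inducible subunits were already lower without overlap, and the constitutive ones had log2 fold changes above 0. This separation was thus largely fixed in advance and is no further support. The differences between the lines of -1.47, -1.37 and -1.88 were -1.21, -1.16 and -1.56 without OVCAR5 replicate 2.

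**Figure D4:**
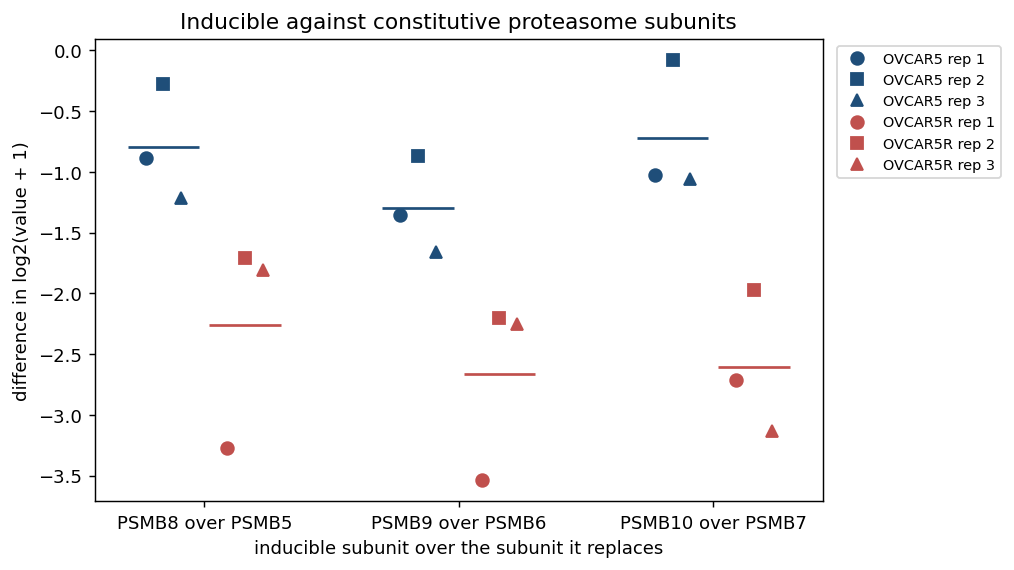
Inducible over constitutive subunit in each library, as the difference in log2(value + 1), for the 3 subunit pairs, with OVCAR5 in blue, OVCAR5R in red, a marker shape for each replicate and a bar at the mean of each line. The red points lie below the blue points in each pair, and the differences of the means are -1.47, -1.37 and -1.88.

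The peptide transporter and its partner make up the rest of this group. TAP1 and TAPBP (tapasin, which holds class I molecules at the transporter) had log2 fold changes of -0.67 and -0.59 with overlapping libraries. TAP2, the other subunit of the transporter, was at 0.15 with an interval of -0.31 to 0.62 although it lies within a few kilobases of PSMB8 and TAP1. The difference between TAP1 and TAP2 was not tested.

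The promoters of these genes can be set beside their values. A search was made for the core of the ISRE, which is GAAA, any 2 bases and GAAA again, or TTTC, any 2 bases and TTTC on the other strand, in RefSeq windows (GRCh38.p14) of 250 bases before and 50 bases after each gene's start. Of the 56 members 45 had a window in the table, and 28 of these (62.2%) held the core in at least 1 window, against 4.38% of the 27305 genes in the table. The members were listed in part because interferon regulates them, so a high share is built into the list. Of the members of peptide supply and loading 7 of 8 held it, the exception being PSMB9. The windows of 6 members are printed 5′ to 3′ on the strand of the gene, with the ISRE core in capitals. The first 3 are of the members with the lowest log2 fold change without OVCAR5 replicate 2. ERAP1, ERAP2 and TAP1 each had 2 windows for different starts, and the window not printed lacked the core. The printed window of TAP1 faces the start of PSMB9 on the other strand, and TAP2 is the member of the same region that was not lower. ISG15 is an antiviral gene that was near 0 with all libraries but above it without OVCAR5 replicate 2. The windows lie at chr16:67936801-67937100 (PSMB10, minus strand), chr5:96807896-96808195 (ERAP1, minus), chr5:96876250-96876549 (ERAP2, plus), chr6:32853655-32853954 (TAP1, minus), chr6:32838690-32838989 (TAP2, minus) and chr1:1013247-1013546 (ISG15, plus).
PSMB10: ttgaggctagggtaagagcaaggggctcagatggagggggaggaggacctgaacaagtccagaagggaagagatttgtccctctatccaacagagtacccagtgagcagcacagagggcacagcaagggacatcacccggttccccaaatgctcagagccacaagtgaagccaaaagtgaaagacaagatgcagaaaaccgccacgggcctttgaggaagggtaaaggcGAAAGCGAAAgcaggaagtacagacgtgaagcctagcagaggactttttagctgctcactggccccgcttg
ERAP1: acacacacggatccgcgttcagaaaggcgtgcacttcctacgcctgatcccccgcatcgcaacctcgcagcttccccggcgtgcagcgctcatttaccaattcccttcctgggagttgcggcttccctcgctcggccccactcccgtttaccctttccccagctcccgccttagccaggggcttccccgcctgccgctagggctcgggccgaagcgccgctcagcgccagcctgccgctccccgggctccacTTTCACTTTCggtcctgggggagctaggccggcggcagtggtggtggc
ERAP2: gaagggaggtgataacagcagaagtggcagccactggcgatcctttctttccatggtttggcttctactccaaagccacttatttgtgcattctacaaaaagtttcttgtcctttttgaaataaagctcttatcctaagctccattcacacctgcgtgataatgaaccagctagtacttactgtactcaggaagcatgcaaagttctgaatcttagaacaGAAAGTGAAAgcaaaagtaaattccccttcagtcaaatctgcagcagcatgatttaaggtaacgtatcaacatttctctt
TAP1: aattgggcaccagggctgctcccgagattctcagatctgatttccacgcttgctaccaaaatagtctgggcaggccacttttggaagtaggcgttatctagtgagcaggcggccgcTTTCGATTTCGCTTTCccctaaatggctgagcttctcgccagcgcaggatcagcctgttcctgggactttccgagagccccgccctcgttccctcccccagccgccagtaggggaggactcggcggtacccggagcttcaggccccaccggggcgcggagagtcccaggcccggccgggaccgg
TAP2: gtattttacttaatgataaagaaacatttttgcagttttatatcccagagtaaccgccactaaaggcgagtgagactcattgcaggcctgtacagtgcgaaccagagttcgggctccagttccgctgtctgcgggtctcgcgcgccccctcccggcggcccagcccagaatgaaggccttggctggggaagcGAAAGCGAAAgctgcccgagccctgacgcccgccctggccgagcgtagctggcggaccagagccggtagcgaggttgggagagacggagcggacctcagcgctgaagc
ISG15: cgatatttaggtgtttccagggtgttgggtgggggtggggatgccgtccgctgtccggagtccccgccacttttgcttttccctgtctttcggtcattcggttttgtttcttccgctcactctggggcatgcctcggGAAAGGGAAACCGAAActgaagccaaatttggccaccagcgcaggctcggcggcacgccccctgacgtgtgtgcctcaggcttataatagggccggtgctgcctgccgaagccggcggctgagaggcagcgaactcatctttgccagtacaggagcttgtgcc

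In the printed windows the core began 21 bases before the start of PSMB10 and 30 bases before that of ERAP2. It began 2 bases after that of ERAP1 and 58 bases before the start of TAP2. The printed windows of TAP1 and ISG15 each held 2 overlapping copies. The letters occurred in windows of members that were far below 0 and of members near 0. Among the 10 antiviral effectors with a window 9 held the core, and of the 7 receptor, kinase and STAT genes with a window 0 did. The core of the gamma-activated sequence (GAS), TTCNNNGAA, which reads the same on both strands and can overlap an ISRE core, was in windows of 11 of the 45 members (24.4%) against 9.38% of all genes, IRF1 among them. A match is only a run of letters in a window, and no binding was measured.

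NLRC5 is the transactivator of class I genes and IRF1 a regulatory factor that is an early target of type II interferon, and these were the lowest of the 6 transactivators and regulatory factors. NLRC5 read 10.7, 20.9 and 9.02 in OVCAR5 and 4.11, 8.65 and 5.35 in OVCAR5R. The lines did not overlap but came close, with OVCAR5R reaching 8.65 and OVCAR5 going down to 9.02, and the log2 fold change was -1.01 (SE 0.38, adjusted p 0.419 by limma), or -0.67 without OVCAR5 replicate 2. IRF1 read 104, 152 and 84.0 in OVCAR5 and 46.3, 91.9 and 50.3 in OVCAR5R (log2 fold change -0.87, SE 0.33, adjusted p 0.419), and here OVCAR5R replicate 2 reached above the lowest OVCAR5 library. IRF2, an IRF1 antagonist, was at -0.39, IRF9 at -0.29, IRF7 at -0.18 and IRF3 at -0.03. Without OVCAR5 replicate 2, IRF3, IRF7 and IRF9 stood above 0, at 0.27, 0.32 and 0.11. IRF3 and IRF7 drive interferon transcription, and IRF9 is the DNA-binding part of the type I interferon complex.

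The 8 receptors, kinases and STATs had a median of -0.11, the role group median nearest to 0 with all libraries, or 0.15 without OVCAR5 replicate 2. The type I receptor chains IFNAR1 and IFNAR2 had log2 fold changes of -0.00 (interval -0.53 to 0.52) and 0.22. IFNAR2 was higher in OVCAR5R at an unadjusted limma p under 0.05 once OVCAR5 replicate 2 was left out, at 0.61, but its adjusted p was then 0.429. The type II receptor chains IFNGR1 and IFNGR2 were at -0.10 and -0.52, and without OVCAR5 replicate 2, in which IFNGR2 read 180 against 74.4 and 41.6 in the other OVCAR5 libraries, they turned to 0.15 and 0.04. The kinases JAK1 and JAK2 were at 0.28 and -0.11, and STAT2 and STAT3 at -0.15 and -0.18, with libraries that overlapped in each case. STAT2 turned to 0.16 and IFNAR1 to 0.16 without OVCAR5 replicate 2.

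Of the nucleic acid sensors, TMEM173 (STING) was at -0.70 with an interval of -1.42 to 0.02, and IFIH1 (MDA5), a sensor of long double-stranded RNA, at -0.67. DDX58 (RIG-I), which senses RNA with a 5′ triphosphate, was at -0.10. CGAS, the DNA sensor upstream of STING that was listed under its older symbol, read 19.4, 20.4 and 23.1 in OVCAR5 and 25.6, 25.2 and 26.6 in OVCAR5R. All its OVCAR5R libraries were above all its OVCAR5 libraries, at a log2 fold change of 0.29 with an interval of -0.16 to 0.74 and an adjusted p of 0.642 by limma. The sensor of the cGAS-STING pair and its adaptor thus had log2 fold changes of opposite sign, and neither passed the test.

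All 12 antiviral effectors had a log2 fold change below 0 with every library used, and each of them overlapped between the lines. ISG20, an exonuclease of viral RNA, had the lowest at -0.85, with 40.8, 46.7 and 14.3 in OVCAR5 and 8.31, 27.0 and 19.1 in OVCAR5R. OAS1, whose product makes the activator of RNase L, shows the weight of OVCAR5 replicate 2, since it read 9.21, 79.2 and 5.22 in OVCAR5 and 5.50, 9.92 and 11.9 in OVCAR5R. Its log2 fold change of -0.83 (SE 0.85) became 0.28 without that library. IFITM1 (-0.78), IFIT1 (-0.80), BST2 (-0.65), IFIT2 (-0.58) and IFIT3 (-0.56) lay in the middle, OAS3 and MX1 were at -0.46 and -0.48, IFITM3 was at -0.46, and IFIT5 (-0.25) and IFITM2 (-0.02) were nearest to 0. BST2, or tetherin, ran over a wide range within each line, at 22.0 to 171 in OVCAR5 and 13.3 to 81.6 in OVCAR5R. Without OVCAR5 replicate 2 the values of OAS1, OAS3, MX1 and BST2 were above 0 and those of the other 8 were not, and the group median was -0.17. The IFITM genes are close copies, so their separate values are uncertain.

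The other ISGs were IFI6, IFI27, IFI35, IFI44 and SP100, with a median of -0.37. IFI27 read 21.1, 259 and 14.9 in OVCAR5 and 5.86, 13.6 and 45.2 in OVCAR5R, so that its log2 fold change of -1.43 (SE 1.08), among the 10 largest of the list, came from 1 library and was -0.17 without it. IFI6 was at -0.16 and turned to 0.48 without that library. IFI35 was at -0.73 and rested on OVCAR5R replicate 1, being -0.02 without that library. SP100, a nuclear body protein, was narrow in both lines, at 90.9, 112 and 103 against 89.6, 80.1 and 66.0. Its libraries did not overlap, but the log2 fold change was only -0.37 (interval -0.84 to 0.09).

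The ISG15 system attaches the ubiquitin-like protein ISG15 to other proteins, with UBE2L6 as the conjugating enzyme and USP18 as the protease that removes it. UBE2L6 at chr11:57551656-57568284 read 77.3, 153 and 52.4 in OVCAR5 and 18.1, 44.8 and 49.2 in OVCAR5R. Its libraries did not overlap, and its log2 fold change was -1.29 (SE 0.48, adjusted p 0.413 by limma) and -0.87 without OVCAR5 replicate 2. ISG15 itself read 83.3, 277 and 64.0 in OVCAR5 and 80.3, 112 and 152 in OVCAR5R, for a log2 fold change of -0.04 that became 0.60 without that library. The difference between the enzyme and its modifier was not tested. USP18 was at -0.78, and the ubiquitin ligases TRIM21 and DTX3L were at -0.19, or 0.03 without OVCAR5 replicate 2, and -0.38. The interferon-stimulated PARPs, which add ADP-ribose and of which PARP9 works as a partner of DTX3L, were at -0.67 for PARP14, -0.56 for PARP9, -0.30 for PARP10 and -0.06 for PARP12. All 4 PARPs were lowest in OVCAR5R replicate 1.

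Members that lie near each other share whatever shifts their chromosome region, so the median log2 fold change of non-member genes starting within 5 Mb was set beside each. It was -0.49 around PSMB10 (89 genes) and -0.33 around NLRC5 (44 genes), both on chromosome 16, and reached -0.99 and -0.92 in OVCAR5R replicate 3 against the OVCAR5 mean. PSMB10 itself was lowest in that library. NLRC5 was instead lowest in OVCAR5R replicate 1, where the median of its neighbours was -0.08. It was 0.05 in OVCAR5R replicate 2. Around ERAP1 and ERAP2 the median of the 15 neighbours was -0.19, but it differed between libraries. Against the OVCAR5 mean it was 0.24, -0.44 and 0.08 in OVCAR5 replicates 1, 2 and 3. In OVCAR5R replicates 1, 2 and 3 it was 0.36, -0.45 and -0.66. ERAP1 was lowest in OVCAR5R replicate 3 and ERAP2 in OVCAR5R replicate 1. Around USP18 the median of the neighbours was -0.41 (60 genes). It was -0.05 to -0.03 around the class I, TAP, tapasin and proteasome genes of chromosome 6 (147 to 156 genes). UBE2L6 had neighbours at 0.14 and the IFIT genes at 0.06 to 0.14. The part of these regional values in the members' values was not tested.

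Per kilobase of exon (GENCODE 29), the highest mean signal of a member was that of IFITM3 in both lines, at 466 in OVCAR5 and 333 in OVCAR5R. HLA-C and B2M followed in OVCAR5, at 233 and 210. The length used was the union of all annotated exons, 2.51 kilobases for HLA-C and 6.08 for B2M. The order of the members depends on that choice. NLRC5 was the lowest member, at 1.09 and 0.487, with ERAP2 next at 1.83 and 0.600. NLRC5 and ERAP2 were both among the members whose libraries did not overlap, but other such members were more abundant. PSMB10 was at 53.8 in OVCAR5 and 17.0 in OVCAR5R, and ERAP1 at 14.8 and 5.13.

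Of 100 other genes of the pathway outside the list, 81 were found and 80 were tested, and none passed an adjusted p under 0.05 by limma. At an unadjusted limma p under 0.05, 15 of these (18.8%, against 6.25% of all genes) were lower in OVCAR5R and 1, PSMB5, was higher. The counts without OVCAR5 replicate 2 were 6 lower (7.5%, against 6.52% of all genes) and 4 higher (5.0%, against 4.32%), shares near those of all genes. Their median was -0.17, or -0.03 without OVCAR5 replicate 2. The lowest were IDO1, which degrades tryptophan, at -2.80 (SE 0.85, adjusted p 0.323), TRIM22, a restriction factor, at -1.95 (SE 0.55, adjusted p 0.304), and GBP2, a guanylate-binding protein, at -1.83 (SE 0.66, adjusted p 0.401). IDO1 read 25.1, 40.3 and 43.5 in OVCAR5 and 0.339, 19.9 and 4.10 in OVCAR5R, and it was at -2.71 without OVCAR5 replicate 2. IDO1 and GBP2 are known targets of type II interferon. The highest were the type III interferon receptor chain IFNLR1 at 0.62, PSMB5 at 0.47 and the ISG15 ligase HERC5 at 0.40, with libraries that overlapped for IFNLR1 and HERC5.

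By list, the other class I genes had a median of -0.18 over 13 tested, with 3 lower (23.1%) and 1 higher (7.69%) at an unadjusted limma p under 0.05. Over all genes tested 6.25% were lower and 4.14% higher by the same measure. The other ISGs had a median of -0.33 over 42 tested, with 10 lower (23.8%) and 0 higher. The other sensing and induction genes were at 0.06 over 16 tested, with 2 lower and 0 higher, and the other signalling and feedback genes at 0.04 over 9 tested, with 0 in either direction. When OVCAR5 replicate 2 was left out, the other class I genes had a median of -0.16, with 1 lower and 1 higher, and the other ISGs a median of -0.13, with 3 lower (7.14%) and 1 higher. In the same setting the sensing and induction genes had 2 lower and 2 higher (12.5% each). Over all genes 6.52% were then lower and 4.32% higher, so the lower share of the other ISGs was near that of all genes.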

How the data were processed

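RNA-seq of 3 cultures each of OVCAR5 and OVCAR5R was analyzed from 1 deposited table of 12309 rows, in which 1 row was an exact copy and was used once. The authors deposited a normalized signal on a linear scale, and their methods state quartile normalization. The build is hg38 per the labels' processing notes. The aligner and the counter are not given in the sources used here. Between 62.1% and 66.6% of the values were whole multiples (within 0.01) of a library's step, so count tests were not used. Estimated reads are the summed values divided by that step.

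Values were taken as log2(value + 1), which understates the change of low genes. The 11766 genes that reached 1 in 3 or more of the 6 libraries were fitted by limma 3.58.1 (lmFit, eBayes with trend, R 4.3.3), two-sided, with Benjamini-Hochberg adjustment over all of them. P-values weigh the difference between the lines against the spread between cultures of a line, and not against a spread between separate selections. With 3 against 3 an exact permutation p cannot be under 0.1. The fit was also run on simulated normal values with a common spread for all genes and no library that stood apart. That run cannot tell how the fit handles OVCAR5 replicate 2. The alternatives were quantile normalization, median centring, a pseudocount of 0.1, other filters, no trend, a replicate block, each library left out, and OVCAR5 replicate 2 with OVCAR5R replicate 1 left out. Positions and exon lengths are from GENCODE 29, and promoters from RefSeq. Python 3.11.15 and matplotlib 3.10.9 were used.

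The members and lists were chosen with earlier results of these data known. Per-library values are given for members without overlap and a log2 fold change of at least 1 in size and for the 10 with the largest size, and those of B2M, SP100, OAS1, ISG15, CGAS and IDO1 were chosen after their values were seen. Of the other pathway genes the 3 lowest and the 3 highest are named, and PSMB6 and PSMB7 were named after their values were seen. A gene of these lists is not reported here.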

Additional observations from a re-analysis of the deposited data

How the results depend on the processing

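No member passed an adjusted p of 0.05 under any alternative, and the smallest adjusted p of a named member was 0.078 (limma). Leaving out libraries cannot change the direction of a member whose libraries do not overlap. The trend, filter and block settings do not change the log2 fold change at all. A kept direction was thus in many cases fixed in advance. The 10 named members kept their direction under all 14 alternatives, except IFI27, whose log2 fold change was 0.47 when OVCAR5 replicate 2 and OVCAR5R replicate 1 were left out together. That alternative was chosen after seeing the data, by values of this list, and pulls it toward 0 by construction: the members' median was then 0.0684, with 3 members lower and 2 higher at an unadjusted limma p under 0.05 (6.52% and 4.8% of all genes), 9 without overlap lower and 13 higher (20.0% and 21.3% of all genes, with 2 libraries a line), and 78 genes past the threshold against 14.

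Leaving out 1 library at a time gave 0 to 29 genes past the threshold, 3 to 13 members lower and 0 to 1 higher at an unadjusted limma p under 0.05, 8 to 21 members without overlap lower and 0 to 2 higher, a median of -0.80 to -0.18, and a log2 fold change of IFI27 of -2.19 to -0.17. The 3 came without OVCAR5 replicate 2 or without OVCAR5R replicate 1, and the 13 and the 21 without OVCAR5 replicate 3. Without OVCAR5R replicate 3 there were 16 members without overlap lower. A lack of overlap is more common with fewer libraries. Over all genes the lower share went from 8.18% to 13.7% without OVCAR5 replicate 2. Shares over all genes were not computed for the other libraries left out singly, so those counts are not read as a result about the members.

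With the replicate number as a block, 5 genes passed the threshold and 8 members were lower at an unadjusted p. Libraries of the same number did not deviate together (correlations across genes of -0.00, 0.18 and -0.12), so the numbers were not taken as pairs. The 3 libraries per line limit the precision, and estimated reads were fewer in each OVCAR5 library.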
